A study of Mus musculus with 22 samples.

Results

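In adult mouse brain, 300 autosomal regions of 100 kb were less methylated in cerebellum than in both cortex and olfactory bulb by the widest margin. They were chosen from the 5mC levels of 24011 autosomal 100 kb bins with a level above 0 and below 1 in all 7 oxBS-seq libraries, so they make up 1.25% of the bins. For each bin the mean level per tissue was taken, and the gap was defined as the smaller of cortex minus cerebellum and olfactory bulb minus cerebellum. The 300 bins with the largest gap, from 0.0645 to 0.394 with a median of 0.0972, are called the members. Since the members were chosen by their 5mC, their 5mC levels are given as a description, and no test was made on them.

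The tissues came from C57BL/6 female mice at 8 weeks of age, with no treatment or genotype differing between the groups. OxBS-seq gave 2 cerebellum libraries, 2 olfactory bulb libraries and 3 cortex libraries, and TAB-seq gave 3 libraries per tissue. The methods of the study call the replicates technical and from independent mice, and its results call them biological replicates. Whole tissue was used, so a level is an average over all the cells in it, and a different makeup of cells and a different level within cells cannot be told apart. The deposited levels are fractions without read counts. The depth behind each bin is therefore unknown, the methods giving only an average per tissue, and the spread between libraries is the only error given.

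Most cytosines in CpG sites of the mammalian genome carry a methyl group, which DNA methyltransferases place and which TET enzymes can oxidize to 5-hydroxymethylcytosine (5hmC), a base that is abundant in neurons. OxBS-seq oxidizes 5hmC before bisulfite treatment, so that only 5mC is read as cytosine, whereas TAB-seq protects 5hmC with a glucose and oxidizes 5mC, so that only 5hmC is read as cytosine. Granule neurons are by far the most numerous cells of the cerebellum, and the bodies of genes that neurons transcribe are known to gain 5hmC and to lose 5mC.

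Cerebellum had the highest 5mC of the 3 tissues over the genome, with a mean over the autosomal bins of 0.732 ± 0.0115 (SD, n = 2). The mean was 0.674 ± 0.0147 (SD, n = 3) in cortex, and olfactory bulb lay between them at 0.705 ± 0.00296 (SD, n = 2). Cerebellum was the lowest tissue in 2031 bins (8.46%), and the median gap of all bins was -0.0628. The third cortex library lay below the other cortex libraries, with a mean of 0.657 against 0.681 and 0.684. Over the members, the libraries of a tissue correlated with Pearson's r between 0.937 and 0.974 across bins, and no libraries held identical values.

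To show what the starts of member genes look like, 4 promoters are printed 5′ to 3′ from the RefSeq copy of GRCm38.p6, each from 250 bases before to 50 bases after a RefSeq transcription start, with every CpG site (the letters CG) in capitals. The starts of Chn2 and Cadps2 lie in members, whereas those of Ablim1 and Car10 lie in bins outside the members although the bodies of both genes hold 3 members. The starts of Chn2 (chr6:54039682-54039981, plus strand, 39 CpG sites) and Cadps2 (chr6:23839372-23839671, minus strand, 54 CpG sites) are dense in CpG. They do not stand for all starts in members. The same window at RefSeq starts in members has 17 CpG sites for Dpf3 and 4 each for Rbfox3 and Fat2. Ablim1 (chr19:57314870-57315169, minus strand) has 20 CpG sites in this window and Car10 (chr11:93098116-93098415, plus strand) has 22.
Chn2: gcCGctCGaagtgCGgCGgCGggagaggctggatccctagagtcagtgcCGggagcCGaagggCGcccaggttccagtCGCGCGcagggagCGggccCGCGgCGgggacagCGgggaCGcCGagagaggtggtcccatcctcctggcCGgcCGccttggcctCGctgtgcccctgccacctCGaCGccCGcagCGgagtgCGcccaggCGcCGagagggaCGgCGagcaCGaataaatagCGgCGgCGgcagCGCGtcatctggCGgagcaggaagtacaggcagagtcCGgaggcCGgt
Cadps2: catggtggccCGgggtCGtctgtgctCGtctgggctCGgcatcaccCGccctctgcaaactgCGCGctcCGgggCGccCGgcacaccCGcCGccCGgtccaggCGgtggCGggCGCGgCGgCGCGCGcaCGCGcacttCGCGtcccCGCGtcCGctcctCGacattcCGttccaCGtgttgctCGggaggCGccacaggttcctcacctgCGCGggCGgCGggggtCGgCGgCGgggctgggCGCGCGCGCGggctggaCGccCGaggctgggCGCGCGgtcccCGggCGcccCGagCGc
Ablim1: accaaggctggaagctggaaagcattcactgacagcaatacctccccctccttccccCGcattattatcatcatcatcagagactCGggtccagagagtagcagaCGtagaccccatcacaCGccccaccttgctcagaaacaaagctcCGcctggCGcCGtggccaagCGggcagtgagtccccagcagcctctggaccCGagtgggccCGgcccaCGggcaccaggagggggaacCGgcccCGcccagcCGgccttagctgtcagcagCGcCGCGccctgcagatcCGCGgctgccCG
Car10: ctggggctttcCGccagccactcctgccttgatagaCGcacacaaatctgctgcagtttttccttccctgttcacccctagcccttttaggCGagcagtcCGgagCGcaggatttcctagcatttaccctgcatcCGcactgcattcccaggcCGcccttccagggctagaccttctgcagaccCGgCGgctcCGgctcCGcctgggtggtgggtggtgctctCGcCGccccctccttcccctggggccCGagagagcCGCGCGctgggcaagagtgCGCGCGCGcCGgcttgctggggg

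The 449 RefSeq promoters whose start lay in a member had a median of 9 CpG sites, against 7 over all 31396 autosomal promoters. A bin is far longer than a promoter, so the level of a bin says nothing about the promoter alone. The bin with the start of Car10 had 5mC of 0.718 and 0.686 in cerebellum, above 0.613, 0.617 and 0.607 in the cortex libraries and 0.675 and 0.641 in olfactory bulb. In the same way, the bin with the start of Ablim1 had 0.645 and 0.634 in cerebellum, above the 3 cortex libraries (0.548 to 0.565) and close to the olfactory bulb libraries (0.652 and 0.636). Car10 begins at chr11:93098028 and Ablim1 at chr19:57314919, so both bins lie mostly upstream of the gene. Their levels are mainly those of upstream sequence.

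Over the 300 members, the mean 5mC was 0.484 ± 0.0103 (SD, n = 2) in cerebellum, 0.605 ± 0.0133 (SD, n = 3) in cortex and 0.637 ± 0.00642 (SD, n = 2) in olfactory bulb. By library the means were 0.491 and 0.477 in cerebellum, 0.609, 0.616 and 0.591 in cortex and 0.642 and 0.632 in olfactory bulb, so the cerebellum libraries lay apart from the rest. In the other autosomal bins cerebellum was the highest tissue, at 0.736, with olfactory bulb at 0.706 and cortex at 0.675. The members were thus lower than the other bins in all 3 tissues, and by the widest margin in cerebellum. Both cerebellum libraries lay below all cortex and olfactory bulb libraries in 295 members, beside 4.33% of all autosomal bins, a count that follows from the rule. Olfactory bulb lay above cortex in 236 members (78.7%), so that cortex was nearer to cerebellum in these. The same order held in 88.6% of the bins outside the members. Over the members olfactory bulb lay above cortex by a median of 0.0284, close to the 0.0320 of all the bins outside the members.

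The widest gap of the genome lay in the body of Chd7, which codes for a chromatin remodeller needed in granule neuron precursors. The bin chr4:8700001-8800000, wholly inside Chd7, had 5mC of 0.187 and 0.192 in cerebellum, 0.619, 0.617 and 0.590 in cortex and 0.585 and 0.582 in olfactory bulb. Exons of Chd7 cover 5.22% of that bin, so it is mostly intron. The next bin along the gene, chr4:8800001-8900000, had 0.455 and 0.439 in cerebellum against 0.662 to 0.727 in the other libraries. The groups of libraries did not overlap in either bin. The first bin of Chd7 holds its start, at chr4:8690406, but lies mostly upstream of the gene. It was outside the members, with 0.473 and 0.477 in cerebellum, 0.499 to 0.550 in cortex and 0.633 and 0.507 in olfactory bulb. Past the end of the gene cerebellum was at 0.698 and 0.695, in the range of the other tissues.

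Chn2, which codes for the Rac GTPase-activating protein beta2-chimaerin, held the second widest gap. In chr6:54100001-54200000, wholly inside the gene, the cerebellum libraries were at 0.330 and 0.329, the cortex libraries at 0.653, 0.667 and 0.608 and the olfactory bulb libraries at 0.662 and 0.640. All of its bins but the last were members, and the levels in the bin before the gene were 0.770 and 0.764 in cerebellum, above cortex (0.655 to 0.707) and olfactory bulb (0.709 and 0.724). Cerebellum was therefore the lowest tissue inside Chn2 and the highest just upstream of it.

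Rbfox3, which codes for the neuronal splicing factor known as the NeuN antigen, held 4 members in a row, chr11:118500001-118900000. Over this run of 400 kb the mean level was 0.258 and 0.251 in the cerebellum libraries, 0.521, 0.516 and 0.518 in cortex and 0.506 and 0.480 in olfactory bulb. The lowest of these bins, chr11:118800001-118900000, was at 0.214 in each cerebellum library and at 0.506 to 0.533 elsewhere. The bin that holds the annotated start of the gene was at 0.521 and 0.515 in cerebellum and 0.487 to 0.559 in cortex, and the bin that holds its end was at 0.546 and 0.559 in cerebellum and 0.520 to 0.530 in cortex. The gene spans chr11:118489762-118911597, so the bins with its annotated start and its end lie mostly outside it. A RefSeq start of the gene (window chr11:118760992-118761291) lies inside a member. The low bins of Rbfox3 were those wholly inside it. Over the 6 bins of the gene the cortex libraries stayed between 0.484 and 0.559 and the olfactory bulb libraries between 0.426 and 0.582.

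Fat2, an atypical cadherin known from the parallel fibres of granule neurons, held members over all of its bins. In chr11:55300001-55400000, which holds its start, cerebellum was at 0.410 and 0.385, cortex at 0.689, 0.700 and 0.660 and olfactory bulb at 0.733 and 0.701. The bin also reaches into Sparc, which codes for a matricellular protein of glia. In the second bin of Fat2, cerebellum was at 0.535 and 0.491 and the other libraries at 0.652 to 0.743. The bin upstream of the gene was at 0.644 and 0.606 in cerebellum, above cortex at 0.514 to 0.559.

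The other members among the 10 with the largest gaps lay in Cnksr3, a scaffold protein of kinase signalling, Zmiz1, a coactivator of transcription, Grm4, a metabotropic glutamate receptor found at parallel fibre terminals, and Wscd2. In Grm4 (chr17:27400001-27500000) cerebellum was at 0.339 and 0.325, olfactory bulb at 0.599 and 0.575 and cortex at 0.688, 0.725 and 0.666, so the 3 tissues stood on 3 levels. In Cnksr3 (chr10:7100001-7200000) the order of the other tissues was reversed, with cerebellum at 0.383 and 0.351, cortex at 0.642, 0.645 and 0.606 and olfactory bulb at 0.716 and 0.708. Zmiz1 (chr14:25500001-25600000) was at 0.295 and 0.266 in cerebellum and at 0.510 to 0.581 in the other libraries. Wscd2 (chr5:113500001-113600000) was at 0.331 and 0.312 against 0.553 to 0.607. In none of these 10 members did a cerebellum library reach the lowest library of the other tissues, as the rule itself favours.

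**Figure D1:**
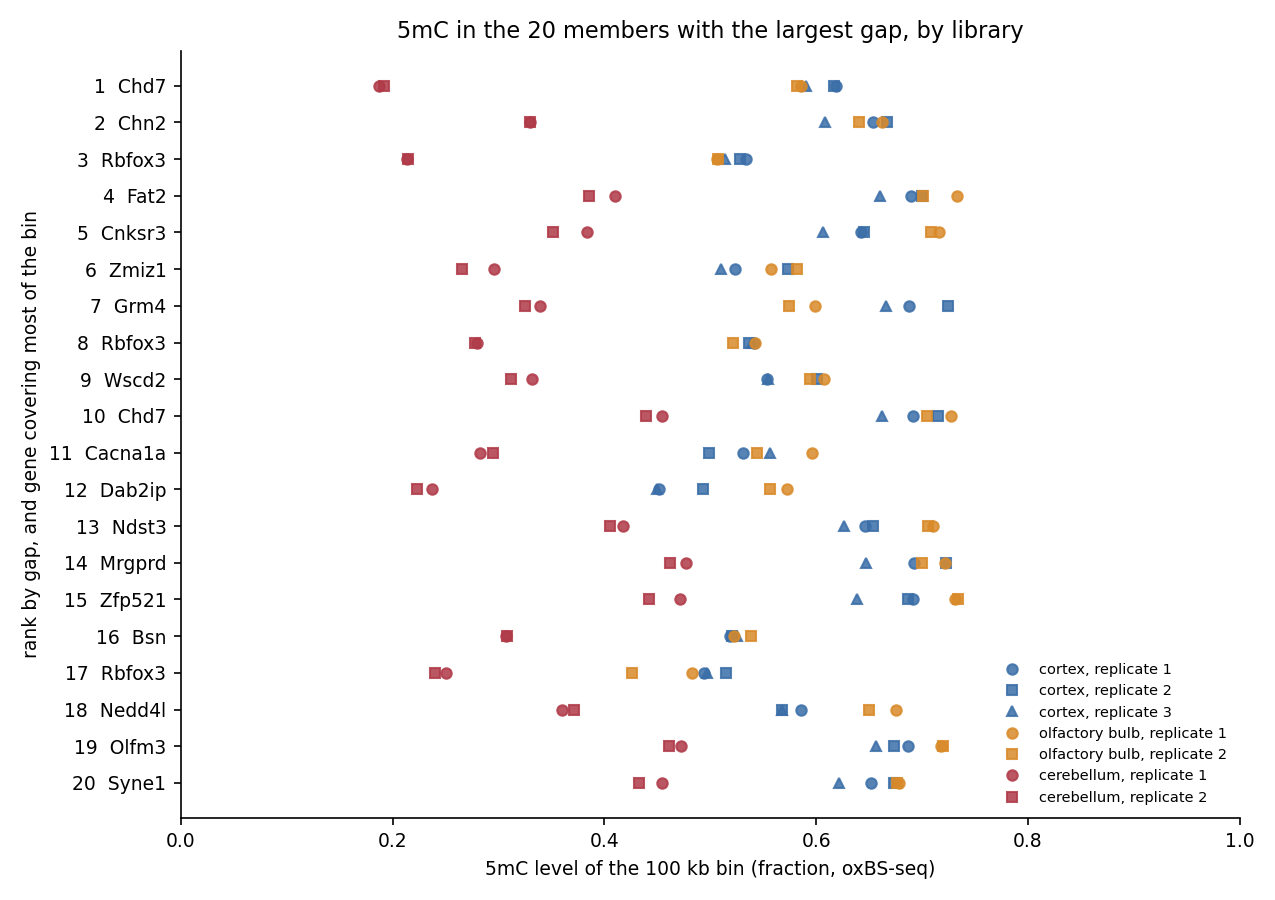
5mC level (fraction, x axis) of the 20 members with the largest gap (y axis, by rank and by the gene that covers most of the bin), with 1 point for each of the 7 oxBS-seq libraries. The cerebellum points of the first bin, in Chd7, lie at 0.187 and 0.192, and in all 20 members they lie to the left of every cortex and olfactory bulb point.

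At the other end of the list, the members passed the threshold by little. The last 3 members were chr7:12000001-12100000 (Vmn1r77), chr16:9900001-10000000 (Grin2a) and chr12:102600001-102700000 (Itpk1), all with a gap of 0.0645. The first 3 bins outside were chr7:22600001-22700000 (Vmn1r155 and Gm8693), chr15:4400001-4500000 (Plcxd3) and chr10:8400001-8500000 (Ust), with gaps of 0.0645, 0.0643 and 0.0641. Of the 300 members, 143 had a gap above 0.1, 22 above 0.2 and 2 above 0.3. For comparison, 286 bins were lowest in cortex by more than 0.1 and 94 were lowest in olfactory bulb by more than 0.1, and no gap of those tissues was as wide as that in Chd7 (at most 0.195 and 0.346).

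Members lay in genes. A protein-coding gene (GENCODE M21) overlapped 294 of the 300 members (98%), against 64.3% of the other autosomal bins, and the median member was covered by genes over 92.1% of its length, against 47.7%. Bins wholly inside protein-coding genes made up 120 of the members (40.0%) and 15.5% of the other bins. A transcription start of a protein-coding gene lay in 154 members (51.3%), against 41.8% of the other bins. Members had more CpG sites per kb (median 10.9 against 7.75), a higher GC content (median 45.3% against 41.4%) and less repeat sequence (median 24.4% against 31.8%). The longest gene in a member had a median length of 163 kb, against 103 kb in the other bins with a protein-coding gene.

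In all, 430 of 20775 protein-coding genes (2.07%) overlapped a member. The share grew with the length of the gene. It was 1.39% of genes under 50 kb, 4.87% of genes of 100 to 200 kb and 10.03% of genes of 400 kb or more. Counted over the bins of such genes, the share of members was 1.21% for genes under 50 kb, 1.65% for 50 to 100 kb, 2.40% for 100 to 200 kb, 2.95% for 200 to 400 kb and 2.16% for 400 kb or more, so that it rose with length up to 400 kb. Of the 953 genes of at least 200 kb on the autosomes, 73 contained the centre of a member, and the members were sparser toward the ends of such genes. Members made up 4.54% of the bins in the opening 20% of the gene's length (37 of 815), 2.78%, 2.998% and 3.16% in the next 3 such stretches and 0.979% in the last (8 of 817).

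The genes with the most members were Rbfox3, Cadps2 and the gene model Gm20388, with 4 each. Cadps2 codes for a protein of dense-core vesicle release that granule neurons carry in their parallel fibres. In chr6:23700001-23800000, the Cadps2 bin with the widest gap, cerebellum was at 0.585 and 0.588, cortex at 0.723, 0.706 and 0.715 and olfactory bulb at 0.789 and 0.782. The 4 members of Cadps2 covered its start and the first part of the gene, and in the bin that holds the end of the gene the cerebellum libraries (0.514 and 0.482) lay close to the others (0.476 to 0.507). Gm20388 spans 4435 kb over many other genes, and its members lay apart from each other, so its count says little about a single gene.

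Chn2, Ablim1, Syne1, Car10 and Dpf3, and Zfp521 and Camk4 on chromosome 18, held 3 members each. Camk4, a calmodulin-dependent kinase that is abundant in granule neurons, had members in all 3 of its bins, and the one with the widest gap, chr18:33000001-33100000, was at 0.520 and 0.519 in cerebellum, 0.675, 0.691 and 0.637 in cortex and 0.704 and 0.705 in olfactory bulb. Zfp521, a zinc finger transcription factor, was at 0.472 and 0.442 in cerebellum in its deepest bin and at 0.638 to 0.734 elsewhere. Ablim1, an actin-binding LIM protein, was at 0.369 and 0.386 in chr19:57200001-57300000, against 0.572 to 0.579 in cortex and 0.684 and 0.670 in olfactory bulb. Car10, a carbonic anhydrase-like protein without enzyme activity, was at 0.449 and 0.431 in chr11:93100001-93200000, against 0.598 to 0.647 in the other libraries. Syne1 codes for a nuclear envelope protein and Dpf3 for a subunit of the BAF chromatin remodelling complex, and the mean gaps of their members were 0.113 and 0.102.

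**Figure D2:**
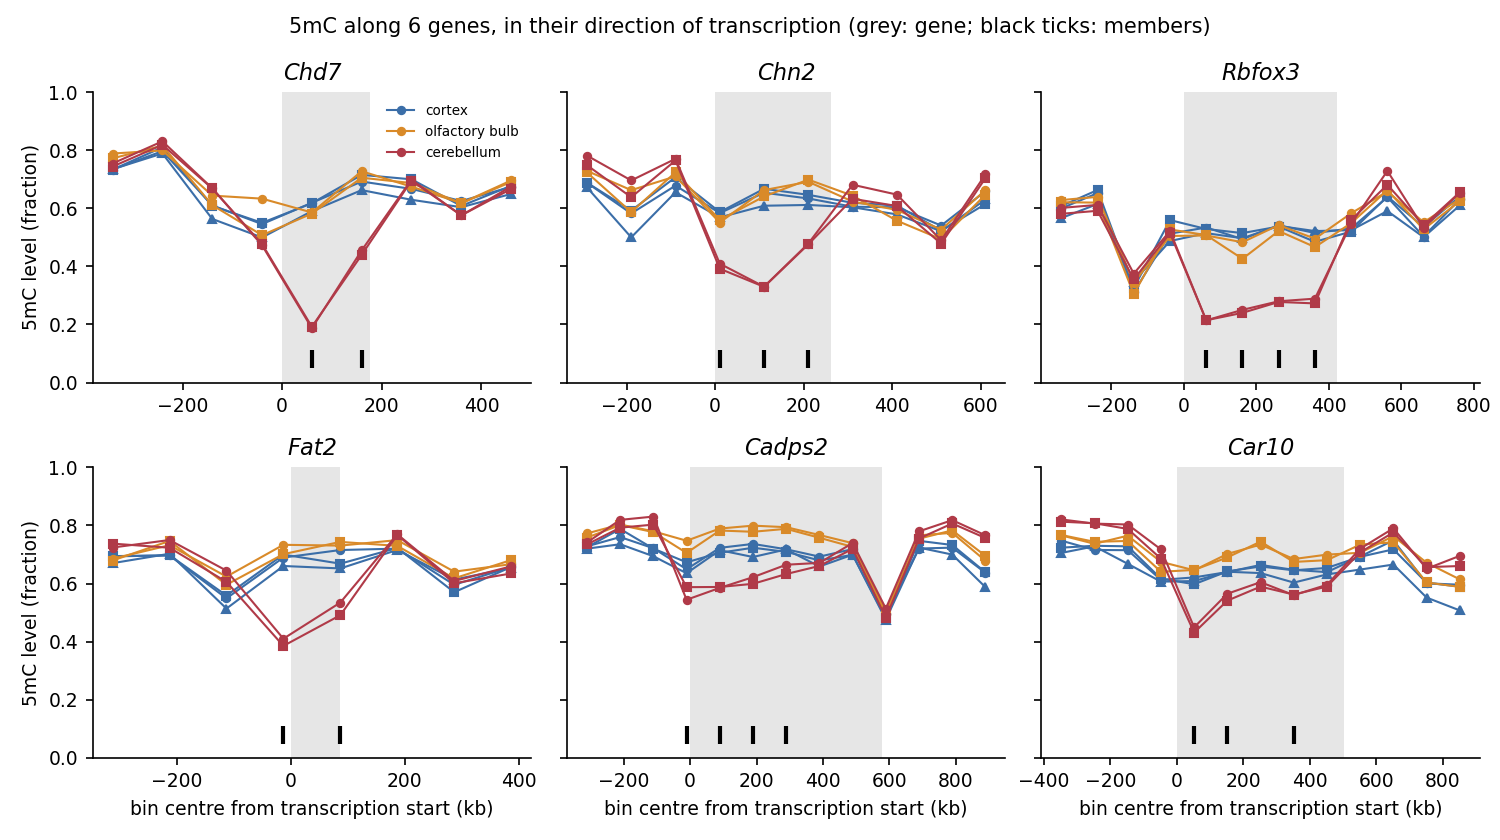
5mC level (fraction, y axis) of successive 100 kb bins along 6 genes against the distance of the bin centre from the transcription start (kb, x axis, in the direction of transcription), with a line for each oxBS-seq library, the gene in grey and the members as black ticks. Cerebellum dropped inside the genes, to 0.187 and 0.192 in Chd7 and 0.214 in Rbfox3, whereas in the bin upstream of Chn2 it was at 0.770 and 0.764, above every other library.

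Among the lists of cell type genes, that of cerebellar granule neurons had the largest share of bins in the members. Of the 32 genes of that list, 16 overlapped a member (50%), and 26 of the 75 bins of these genes were members (34.7%), against 1.89% of the bins of all protein-coding genes. The median gap over all 75 bins of the list, members or not, was 0.0184, against -0.0629 for all protein-coding genes. The list had been drawn up with results of these data known, so this count is a description.

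Among the transcription factors of the granule list, Neurod1, which drives the differentiation of granule neurons, lay in a member (chr2:79400001-79500000) at 0.433 and 0.428 in cerebellum, 0.563, 0.572 and 0.539 in cortex and 0.615 and 0.552 in olfactory bulb. Neurod1 spans only 4.23 kb of this bin, and Cerkl covers more of it. The member with Zic2 and Zic5, zinc finger factors of granule precursors, was at 0.290 and 0.274 in cerebellum and 0.318 to 0.458 elsewhere. These genes span only 4.42 kb and 8.88 kb of it. The bin of Nfix had low levels in general, with 0.169 and 0.180 in cerebellum and 0.266, 0.299 and 0.295 in cortex against 0.450 and 0.422 in olfactory bulb. The member in Nfib had a gap of 0.0916 in 1 of 6 bins of the gene.

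Among its receptors and synaptic proteins, the member with Grin2c, the NMDA receptor subunit of mature granule neurons, was at 0.355 and 0.313 in cerebellum and 0.497 to 0.557 elsewhere, in a bin that also holds Tmem104, Fads6 and Fdxr. The member with Cbln1, a synaptic organizer that granule neurons secrete, had cerebellum at 0.516 and 0.467 and the lowest cortex library at 0.531, a narrow separation. Cbln1 spans only 4.21 kb of that bin. Gabrd, the delta subunit of tonic GABA-A receptors, shared its member with Prkcz, at 0.411 and 0.436 in cerebellum and 0.493 to 0.523 elsewhere. Cntn2, a cell adhesion molecule, and Tiam1, a Rac activator, had members with gaps of 0.0852 and 0.150.

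The other cell type lists had smaller shares than that of granule neurons. The Purkinje cell list had 3 of 24 genes with a member and 4 of 84 bins (4.76%, against 1.89% of the bins of all protein-coding genes), among them bins in Cacna1a and Plcb4. Cacna1a, the pore subunit of P/Q-type calcium channels, is also expressed in granule neurons, and its widest member was at 0.283 and 0.294 in cerebellum and 0.498 to 0.596 elsewhere. Other cerebellar neurons had 2 of 48 bins (4.17%), both in Megf11, and Bergmann glia and astrocytes had 1 of 33 (3.03%), with the start of the bicarbonate transporter Slc4a4. No bin was a member among the lists for oligodendrocytes and precursors (0 of 15), microglia (0 of 11), cortical excitatory neurons (0 of 42) and olfactory bulb interneurons (0 of 29), nor among hindbrain and midbrain patterning factors (0 of 30) and enzymes of DNA methylation and oxidation (0 of 19). At the share of all protein-coding genes, each of these lists would hold fewer than 1 member, so a count of 0 does not set them apart. The median gaps of cortical excitatory and olfactory bulb interneuron genes, -0.115 and -0.119, lay below that of all genes.

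Genes of neuronal excitability held members in several families. For all protein-coding genes the share of bins was 1.89%, and by gene length it lay between 1.21% and 2.95%. Voltage-gated calcium channels had 5 of 59 bins (8.47%), in Cacna1a, Cacna1e and the auxiliary subunit gene Cacnb4. Voltage-gated potassium channels had 4 of 74 bins (5.41%), in Kcnd2, Kcna5 and Kcnc1. Glutamate receptors had 6 of 116 bins (5.17%), among them bins in Grm4, Grin2c, Grin2a and the kainate receptor gene Grik2. GABA-A receptor subunits had 1 of 35 bins (2.86%), a share within that range by length. The nuclear factor I family had 2 of 16 bins (12.5%), in Nfib and Nfix. The median gaps of the 4 excitability lists were all below that of all protein-coding genes, between -0.0966 and -0.0708, so most bins of these families were not low in cerebellum.

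**Figure D3:**
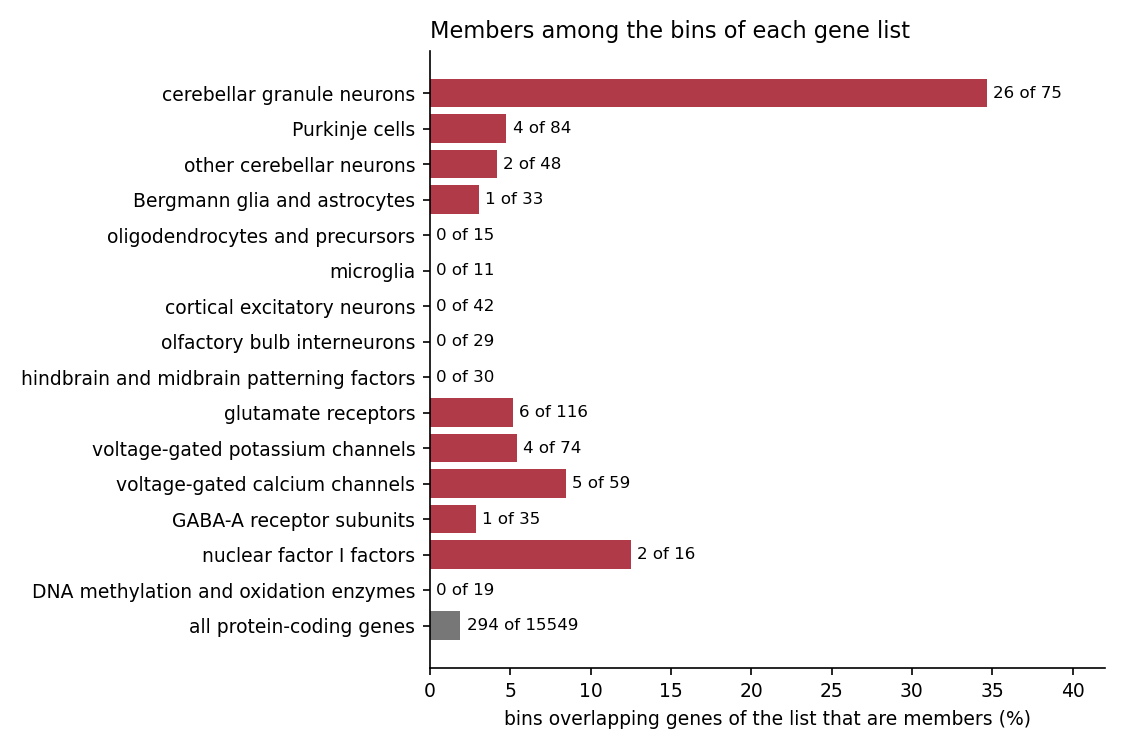
Percent of the 100 kb bins overlapping genes of each list (y axis) that were members (x axis), with the numbers of members and bins beside each bar. The bar of cerebellar granule neurons, 26 of 75 bins, is the longest, and the grey bar of all protein-coding genes stands at 1.89%.

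The members formed short clusters. They fell into 234 runs of adjoining bins, of which 181 were a single bin, 44 had 2 bins and 9 had 3 or 4. A member adjoined another in 119 cases (39.7%), and of the 598 positions directly beside a member, a bin between members counting for each of them, 132 (22.1%) held another member, where the members made up 1.25% of all bins. The 4 runs of 4 bins lay in Rbfox3, in Ablim1 with Afap1l2 and Vwa2 (chr19:56900001-57300000), in Cadps2 with Rnf133 and Rnf148 (chr6:23500001-23900000), and over Prkcz, Ski, Morn1, Plch2, Gabrd, Rer1, Faap20 and Pex10 (chr4:155000001-155400000). The first 3 follow a long gene, and the fourth covers a row of short ones. Of the 5 runs of 3 bins, 4 followed Chn2, Zfp521, Camk4 with Stard4 and Dpf3, and the other lay over Sult2a3 and Sult2a6 on chromosome 7.

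Around the members, cerebellum was no longer the lowest tissue. Members were left out of the surrounding bins, all of which therefore have a smaller gap than the members, so part of the step at their edge follows from the rule. Distances were taken from any member, so a bin near several members counts at several distances. In bins 100 kb from a member the mean 5mC of cerebellum was 0.643 ± 0.0108 (SD, n = 2), between cortex at 0.626 ± 0.0138 (SD, n = 3) and olfactory bulb at 0.658 ± 0.00638 (SD, n = 2). At 200 kb cerebellum was the highest tissue, at 0.682, with olfactory bulb at 0.671 and cortex at 0.642. The median difference of cerebellum from cortex went from -0.103 in the members to 0.0219 at 100 kb, 0.0459 at 200 kb and 0.0565 at 1000 kb.

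Chromosome 7 held 32 members (2.25% of its bins) and chromosome 11 held 26 (2.19%), whereas chromosome 13 held 3 (0.256%). Members of chromosome 18 had the largest median gap, 0.148 over 13 members. On chromosome 7, 21 of the 32 members lay in 1 Mb bins with 5hmC under 0.1 in cortex. This limit was set after the values were seen. In the genome 27 members (9%) lay in 18 such 1 Mb bins, against 5.70% of the other 100 kb bins. Of the 27, 4 were on chromosome 17. In the 1 Mb bins of the 27, cortex 5hmC ran from 0.0168 to 0.0904.

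These 27 members differed from the other 273 in what they held. Vomeronasal receptor genes (Vmn1r and Vmn2r), which sensory neurons of the nose express, lay in 13 of the 27, secretoglobin genes (Scgb) in 2 and sulfotransferase genes of the Sult2a family in 3, all of them tandem gene families. None of the other 273 held a gene of these families. The median repeat content of the 27 was 56.5%, against 23.6% in the other 273, and the median cover by genes was 21.3% against 97.1%. Their median gap was 0.0707, with the best of them at rank 94, and their median 5mC was 0.757 in olfactory bulb, 0.751 in cortex and 0.672 in cerebellum, far above the 0.470 of the other 273 members in cerebellum. The member at rank 94, chr7:32900001-33000000, was at 0.835 and 0.556 in the cerebellum libraries, so its place rests on 1 library. In all, 5 members had a cerebellum library within the range of the other tissues, 2 of them among these 27. Reads were mapped uniquely, and the number of reads in such repeated regions is not part of the levels used here. The part of repeats and of read number in these gaps was not tested.

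The 5hmC of the members was available in 1 Mb bins, each of which holds 10 bins of 100 kb, and the members fell into 224 of these. Since TAB-seq libraries played no part in the choice of members, 5hmC was tested, with limma on log2(level/(1 − level)) over all 2581 bins of 1 Mb with levels above 0 and Benjamini-Hochberg adjusted p-values. In cerebellum, the 1 Mb bins with members had more 5hmC than the other bins, a mean of 0.141 against 0.0943, a difference of 0.0470 ± 0.000953 (SD, n = 3). The difference was 0.0106 ± 0.000381 (SD, n = 3) in cortex, from 0.179 and 0.168, and 0.0147 ± 0.00109 (SD, n = 3) in olfactory bulb, from 0.164 and 0.149. By library it was 0.0472, 0.0460 and 0.0479 in cerebellum, above the highest of the other tissues, 0.0158.

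The deficit of 5hmC in cerebellum was smaller where members were denser. In 1 Mb bins without members, the mean 5hmC of cerebellum was 43.9% lower than in cortex, and in bins with 1, 2 and 3 or more members it was 24.4%, 12.9% and 4.56% lower. Against olfactory bulb it was 36.7% lower without members, 17.0% lower with 1 member and 6.44% lower with 2, and with 3 or more members it was higher in cerebellum, at 0.151 ± 0.00269 against 0.143 ± 0.00370 (SD, n = 3). Genes covered more of the bins with members (median 61.8% with 1 member and 68.8% with 3 or more, against 50.02% without). In 1 Mb bins at least 50% covered by genes, bins with members exceeded the others by 0.0401 in cerebellum. The excess was 0.00664 in cortex and 0.00956 in olfactory bulb. Gene cover was not matched between these bins, and its part in the difference was not tested.

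**Figure D4:**
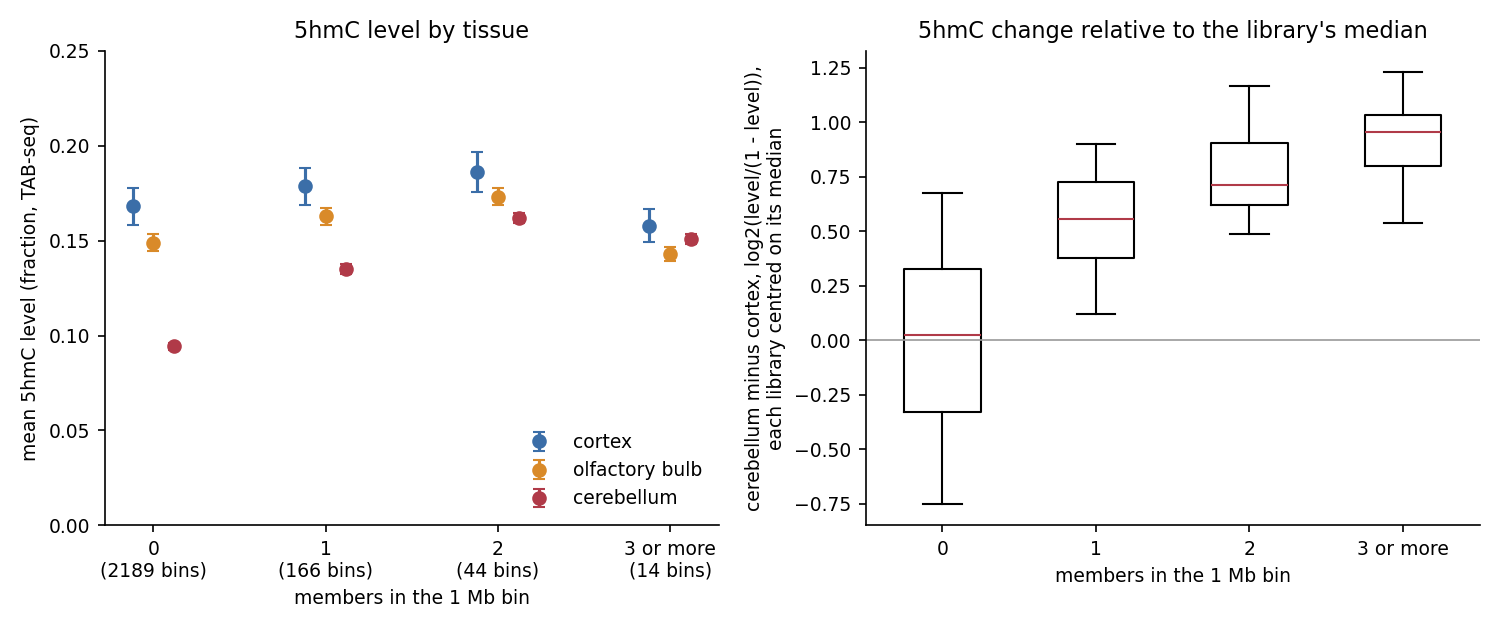
Left, mean 5hmC level (fraction, y axis) of autosomal 1 Mb bins with 0, 1, 2 and 3 or more members (x axis) by tissue, with bars for the SD over 3 TAB-seq libraries. Right, the centred change from cortex to cerebellum on the log2(level/(1 − level)) scale for the same bins (box: quartiles and median; whiskers: 5th and 95th percentiles), with a median of 0.954 in bins with 3 or more members.

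On the levels as deposited, 5hmC fell from cortex to cerebellum in 97.6% of all 1 Mb bins and in 194 of the 224 member bins (86.6%) at an adjusted p-value under 0.05. It rose in 0.426% of all bins (11 bins), of which 6 were member bins. Without the second cortex library it rose in 0.736% of all bins (19 bins), of which 11 were member bins. Against olfactory bulb, 5hmC fell in 91.8% of all bins and in 135 member bins (60.3%), and rose in 1.2% of all bins (31 bins), of which 18 were member bins. The median change was -0.42 in member bins and -0.97 over all bins against cortex, and -0.24 and -0.72 against olfactory bulb. This fit gave every bin the same standard error, 0.0732, so the p-values do not reflect the spread of a single bin.

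To compare bins beyond this shift of the whole genome, each library was centred on its median over bins. After centring, 5hmC was higher in cerebellum than in cortex in 218 of the 224 member bins, beside 50.3% of all bins. It was lower in 2, beside 40.1%. All bins include those of chromosome X. On autosomes alone 216 member bins were higher, beside 47.8%. Without the first cortex library, or without the third cerebellum library, 1 member bin was lower in place of 2, beside 38.9% and 39.2%. Against olfactory bulb 5hmC was higher in 211 member bins, beside 50.9% of all bins, and lower in 6, beside 39.1%. On the fraction scale the 6 became 17, beside 32.7% of all bins. The median centred change was 0.62 in member bins against 0.076 over all bins for cortex, and 0.56 against 0.083 for olfactory bulb. All 14 bins with 3 or more members were higher in both comparisons. Among the 206 member bins with 5hmC of at least 0.1 in cortex, 202 were higher than in cortex.

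Among the 1 Mb bins, 4 held 4 members each. That of Cadps2 (chr6:23000001-24000000) had 5hmC of 0.177, 0.182 and 0.180 in cerebellum, 0.160, 0.174 and 0.152 in cortex and 0.121, 0.126 and 0.122 in olfactory bulb. The cerebellum libraries were the highest of all 9, and the rise was called on the deposited levels against both cortex (0.18, limma adjusted p = 0.0136) and olfactory bulb (0.64, limma adjusted p = 2.77e-18). In the bin of Rbfox3 (chr11:118000001-119000000), cerebellum was at 0.202, 0.197 and 0.209, within the range of cortex (0.194 to 0.212) and below olfactory bulb (0.211 to 0.220), and neither difference passed the test (limma adjusted p = 0.939 and 0.121). The bin of Prkcz and Gabrd (chr4:155000001-156000000) was at 0.177, 0.178 and 0.184 in cerebellum and 0.176 to 0.208 in cortex, and its differences did not pass the test either (limma adjusted p = 0.113 and 0.329). The fourth, on chromosome 7 with Scgb1b10, had hardly any 5hmC in any library, from 0.0111 to 0.0190.

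Among the 1 Mb bins with members, those of Fgf14, Rbfox1 and Car10 had the largest centred rises from cortex to cerebellum. Fgf14 codes for a regulator of sodium channels linked to ataxia, and Rbfox1 for a splicing factor related to Rbfox3. The 1 Mb bin with 2 members in Fgf14 (chr14:124000001-125000000) had 0.249, 0.238 and 0.244 in cerebellum, 0.178, 0.194 and 0.159 in cortex and 0.159, 0.170 and 0.166 in olfactory bulb, a centred change of 1.63 (SE 0.0414, limma adjusted p = 6.00e-10). That of Rbfox1 (chr16:6000001-7000000) had 0.259, 0.263 and 0.267 in cerebellum against 0.217 to 0.239 in the other libraries, a centred change of 1.33. That of Car10 (chr11:93000001-94000000) had 0.212, 0.214 and 0.212 in cerebellum against 0.180 to 0.201 in cortex and 0.167 to 0.176 in olfactory bulb, a centred change of 1.25. In all 3 bins every cerebellum library lay above every other library.

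Few of the bins with members fell from cortex to cerebellum after centring, where 2 were called lower, beside 40.1% of all 1 Mb bins. The 1 Mb bin with the member in Arhgap21 (chr2:20000001-21000000) had 0.102, 0.102 and 0.107 in cerebellum and 0.189 to 0.224 in cortex, a centred change of -0.14 (SE 0.0307, limma adjusted p = 0.00178). A bin on chromosome 7 (chr7:61000001-62000000), whose member holds no protein-coding gene, had a centred change of -0.082, and that of Tmem267 (chr13:119000001-120000000) one of -0.069, which did not pass the test (limma adjusted p = 0.165). The member in Tmem267 was among the 5 whose libraries overlapped between tissues.

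The 1 Mb bin of Chd7 (chr4:8000001-9000000), which holds the widest gap in 5mC, did not stand out in 5hmC, with 0.164, 0.163 and 0.167 in cerebellum, 0.187 to 0.211 in cortex and 0.188 to 0.197 in olfactory bulb. Its centred change from cortex was 0.72, close to the median of the member bins. Across the 224 member bins, the largest gap in a bin and its centred change had a Spearman's rho of 0.163, as a description over bins that share libraries. Only 15 of the 224 member bins had a mean 5hmC above that of cortex in cerebellum, and 8 of the 2189 other autosomal bins had one.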

How the data were processed

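5mC was measured by oxBS-seq (7 libraries) and 5hmC by TAB-seq (9 libraries), and samples were grouped by the tissue and replicate in their titles. The authors mapped reads uniquely to mm10 with Bismark and deposited, per library, the level of each bin as a fraction, without counts or coverage. The way sites make up a bin's level is not given in the sources used here. For olfactory bulb and cerebellum oxBS-seq, the replicate numbers of the titles differ from those in the library names, and the titles were used. RNA-seq was not analysed here.

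From the fractions, bins at 0 or 1 in any library were left out, the gap was computed per 100 kb bin, and genes came from GENCODE M21 and sequence from GRCm38, whose chromosome lengths match the bins. limma 3.58.1 (R 4.3.3) was fitted to log2(level/(1 − level)) of 5hmC, all 9 libraries in 1 fit, as deposited and after centring each library on its median, with Benjamini-Hochberg adjustment and calls at an adjusted p under 0.05. The fit was tested on simulated data. Python 3.11.15 with pandas 2.3.3 and numpy 2.4.6 was used otherwise, and matplotlib 3.10.9 for the plots.

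The members and gene lists were chosen with earlier results of these data known. Named were the genes of the 10 largest gaps, of the 6 longest runs and of the bins beside the threshold. The 12 genes with the most members and list genes with a member were also named. So were the 1 Mb bins with the most members and, among 1 Mb bins with members, those with the largest centred changes. A gene of the lists is not reported here. Alternatives were other scales, centrings, filters, gene and neighbour definitions, limma's trend and robust options, each library left out in turn, and a block for the replicate number.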

Additional observations from a re-analysis of the deposited data

Results flagged for a closer look

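On chromosome X, which the choice of members left out, 25 of 1653 bins (1.51%) had a gap above that of the last member, and the widest was 0.193. These bins are given because no comparison above used them, and their share is near the 1.25% of autosomal bins that are members.

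In 1 Mb bins with 3 or more members, 5hmC lay below that of the bins without members in all 3 cortex libraries (mean difference -0.0102) and all 3 olfactory bulb libraries (-0.00619), and above it in all 3 cerebellum libraries (0.0564). The difference between tissues was not tested. Of these 14 bins, 3 held repeated gene families and had 5hmC under 0.1 in cortex. Without all bins under 0.1, the remaining 11 lay above the others in every tissue, by 0.0900 in cerebellum, 0.0217 in cortex and 0.0227 in olfactory bulb.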

How the results depend on the processing

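Over 161 alternatives for 14 results, 139 left the value within the limits set (1.5 times for counts, 1 SD between libraries for differences), 20 moved it and 2 reversed its sign. Under the 10 alternatives of the choice of members, 255 to 292 of the 300 were kept, and 212 were kept under all of them, among them all 10 with the largest gaps. Leaving out 1 library each kept between 269 and 292. A protein-coding transcription start lay in 154 members, where 294 overlapped a gene.

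The excess of 5hmC in 1 Mb bins with members with the median over bins was 0.0529 in cerebellum, 0.0159 in cortex and 0.0178 in olfactory bulb. In bins at least 50% covered by genes it was 0.0401, 0.00664 and 0.00956. With 3 or more members it was 0.0564, -0.0102 and -0.00619. Without bins under 0.1 in cortex, a limit chosen after seeing the data, it was 0.0538, 0.0175 and 0.0208, and with 3 or more members as well 0.0900, 0.0217 and 0.0227.

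The member bins lower in cerebellum than in cortex after centring, 2 in all, became 1 with trend and robust and 1 without bins under 0.1, 3 on autosomes only, with the replicate block and with centring on the mean, and between 1 and 2 when a library was left out. Beside these counts, 40.1% of all bins were lower in the main fit, and between 38.9% and 42.6% in these alternatives. Against olfactory bulb, the 6 lower bins, beside 39.1% of all bins, became 17 on the fraction scale, beside 32.7%. The member bins higher than in cortex on the deposited levels numbered between 4 and 11 when a library was left out. The share of all bins was between 0.271% and 0.736%. The causes were not tested.

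The labels do not say what a shared replicate number marks. The deviations of same-numbered TAB-seq libraries of cerebellum and the other tissues, the groups compared, correlated with r between -0.229 and 0.0743. Between cortex and olfactory bulb, all 3 same-numbered pairs had r between 0.126 and 0.344, and differently numbered pairs between -0.287 and -0.0188. With the number as a replicate block, 198 member bins were lower than in cortex, beside 97.9% of all bins (194 and 97.6% without it). After centring, 217 were higher, beside 50.4% of all bins (218 and 50.3% without it). With the block, no count moved by over 1.5 times. The unknown depth per bin limits how far low-coverage bins can be told apart.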
